A study of Mus musculus with 12 samples.

Results

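The smooth muscle contractile genes are 10 genes whose proteins build and regulate the actin and myosin filaments of smooth muscle: Acta2, Tagln, Myh11, Cnn1, Actg2, Mylk, Lmod1, Myl9, Smtn and Tpm2. They were taken by gene name from the annotation of a mouse Agilent array, and all 10 genes were present. They had 18 of the 41174 probes on the array and made up 10 of the 20597 genes tested. The series set mouse lung tumours that its labels call KO for Dnmt3a, the enzyme that adds new methyl groups to DNA, against tumours called WT. Every animal was of C57/129 background and carried the K-ras LSL-G12D allele, an oncogenic K-ras behind a stop cassette. Adenoviral Cre recombinase, given through the airways at an age of 6 to 12 weeks, activated that allele in KO and WT animals alike. KO animals were also homozygous for a conditional Dnmt3a allele. Cre therefore acted only in cells that the virus reached, and smooth muscle or other host cells in a tumour need not have lost Dnmt3a.

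There were 12 two-colour arrays, numbered as replicates 1 to 12, and on each a KO and a WT tumour were hybridised together, the KO sample in Cy5 on 6 of them. The ages and sexes in the labels form 4 combinations, called pairs A to D. Pair A (replicates 1 to 4) set a KO male of age 47.7 against a WT male of 42.6, and pair B (replicates 5 to 8) a KO male of 27 against a WT male of 41.3. Pair C (replicates 9 and 10) had a KO male of 27 and a WT female of 47.6, and pair D (replicates 11 and 12) males of 29.1 and 37.3. Pairs A and B held both dye orientations, while the KO sample was in Cy5 on both arrays of pair C and in Cy3 on both of pair D. The labels give no unit of age. The ages differed in all 4 pairs, with the KO animal the younger in 3 of them, so genotype and age cannot be told apart within a pair. In pair C, genotype and sex cannot be told apart either. It is not stated whether arrays within a pair represent different animals or tumours. The p-values therefore reflect the spread among these arrays, part of which may be technical.

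Between 81.7% and 89.6% of probes were well above background on the slides of pairs A and B, against 59.1% to 72.2% on the slide shared by pairs C and D. No spot was saturated (0 spots), and the number of arrays limits the precision. All 6 alveolar type 2 markers tested, among them Lamp3, Cdh1 and Epcam, were well above background on 12 of 12 arrays in both RNAs. The targeted gene had 3 Dnmt3a probes, with log2 KO over WT ratios of -0.55 ± 0.075, -0.25 ± 0.049 and -0.21 ± 0.045 (SE, n = 12 arrays). Each was called lower in the fit of all kept probes (limma adjusted p = 0.00265, 0.0158 and 0.0217). The deleted part of Dnmt3a was not known here, and a probe that lies outside it does not check the deletion. Among all genes, 694 were called higher and 777 lower in KO tumours, and with local backgrounds as deposited the split was 766 to 517.

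Smooth muscle contracts when calcium-bound calmodulin activates myosin light chain kinase (Mylk), which phosphorylates the myosin regulatory light chain (Myl9) and lets the smooth muscle myosin heavy chain (Myh11) pull on actin filaments. Tropomyosin, calponin and transgelin lie along those filaments. In lung, contractile smooth muscle surrounds airways and vessels, and myofibroblasts of tumour stroma also make Acta2 and Tagln. Most of these genes carry CArG boxes, sites of serum response factor (Srf), which activates them together with myocardin (Myocd) or the related factors Mkl1 and Mkl2.

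The promoters that hold a CArG box, or a stretch 1 base away from it, are printed because this element links the contractile genes to Srf. A CArG box is a run of 6 A or T bases between CC and GG, and it reads as the same pattern on both strands. RefSeq promoters of assembly GRCm38.p6 were at hand for 7 of the 10 genes. In the 250 bases before the start, 1 of these 7 promoters held a box, against 1.47% of all 32851 promoters, and 3 held a stretch 1 base away from it, against 17.5% of all. Myl9 had the box 161 bases before its start. The capitals mark the box and the stretches 1 base away, each sequence runs 5′ to 3′ along the gene, and none reaches past the start.
Myl9 (chr2:156775278-156775399, plus strand): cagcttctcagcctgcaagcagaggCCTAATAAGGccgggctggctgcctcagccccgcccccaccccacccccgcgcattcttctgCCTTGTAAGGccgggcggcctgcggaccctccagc
Acta2 (chr19:34255374-34255482, minus strand): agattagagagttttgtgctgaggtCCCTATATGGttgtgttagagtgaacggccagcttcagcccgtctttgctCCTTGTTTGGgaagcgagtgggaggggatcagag
Lmod1 (chr1:135324599-135324683, plus strand): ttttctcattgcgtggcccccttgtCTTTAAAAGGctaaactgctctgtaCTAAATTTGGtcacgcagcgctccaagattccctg
Acta2 and Lmod1 had 2 such stretches each, and Myl9 had 1 beside its box. In Cnn1, Mylk, Smtn and Tpm2 these letters were not found in this window. TATAAA was found in 0 of the 7 promoters on either strand, against 12.4% of all. CpG sites, the substrate of Dnmt3a, numbered 16 in the Myl9 window, 17 in that of Tpm2 and between 3 and 7 in those of the other 5 genes, with a median of 6 over all promoters. Such matches describe the sequence and were not tied to the ratios below.

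None of the 10 genes was called between KO and WT tumours (limma over all genes, 0 of 10 at adjusted p under 0.05), where 7.14% of all genes were. At an unadjusted p under 0.05 there were 2 of 10, Mylk and Myl9, against 22.4% of all genes. Among the 17 probes kept, 0 were called, against 5.71% of all kept probes, and 3 had an unadjusted p under 0.05, against 21.0% of all kept probes. The ratio lay below 0 for 7 genes and above 0 for 3, with a median of -0.12 against -0.0056 over all genes. Over the 12 arrays the KO and WT levels of the brightest Mylk probe overlapped, although its ratio within arrays was below 0 on 11 of 12. In RNA of whole tumours, fewer cells of a type and less RNA per cell cannot be told apart.

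**Figure D1:**
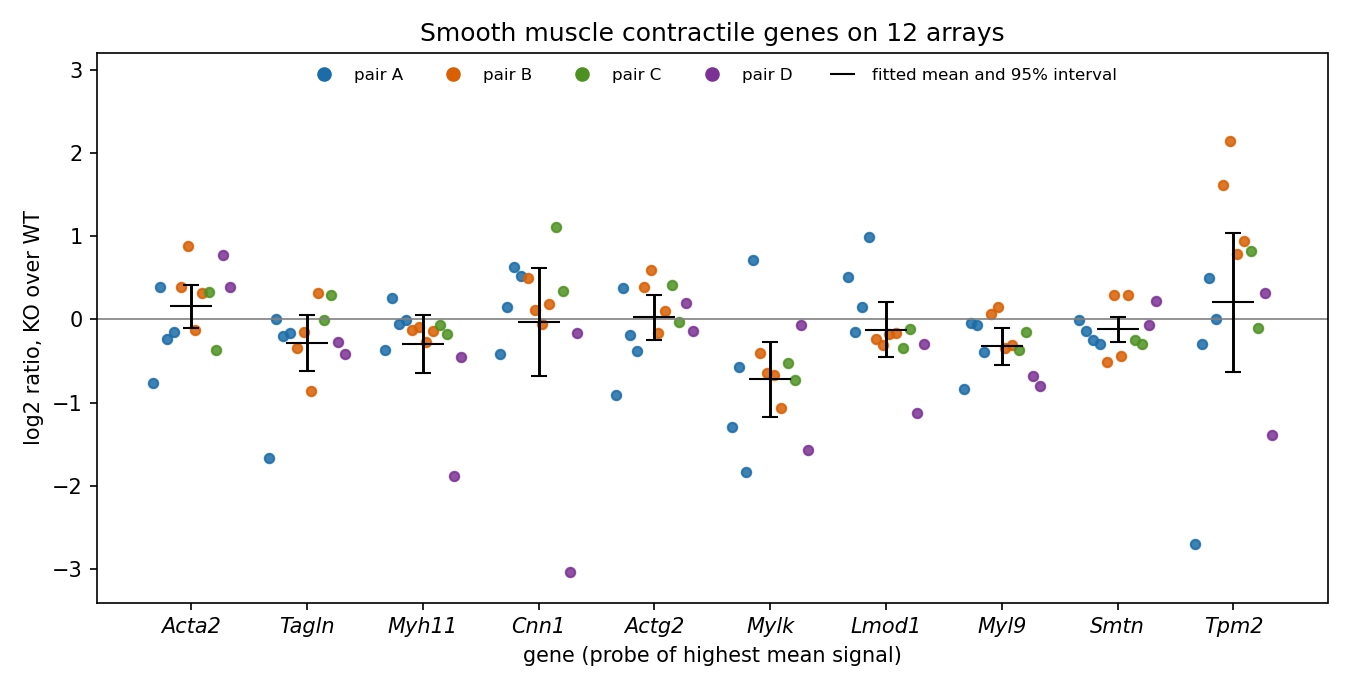
Log2 ratio of KO over WT (vertical axis) of the 10 contractile genes (horizontal axis), 1 point for each of the 12 arrays, coloured by pair, with the fitted mean and its 95% interval in black. Intervals of 8 genes span 0, while those of Mylk and Myl9 lie below 0, and single arrays of Cnn1 and Tpm2 reach -3.03 and -2.69.

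The kinase Mylk had the ratio farthest from 0 among the 10 genes. Its brightest probe, A_52_P575217 on NM_139300 (mm7, chromosome 16, 34671521 to 34671580, plus strand), read log2 signal levels of 11.39 to 13.32 in KO RNA (median 12.22) and of 12.10 to 13.60 in WT RNA (median 13.05). A level is comparable only within a probe. KO RNA was lower than WT RNA on 11 of 12 arrays, and replicate 4, at 0.71, was the exception. The remaining 11 ratios ran from -1.83 on replicate 3 to -0.061 on replicate 11. The fitted ratio was -0.72 ± 0.21 (SE, n = 12 arrays, 95% interval -1.17 to -0.27, limma adjusted p = 0.0561), which corresponds to 1.65-fold lower and misses the threshold. The pair means were -0.75, -0.69, -0.62 and -0.82 in pairs A, B, C and D. Fitted per pair with the dye term, they were -0.75, -0.69, -0.29 and -1.15, since pairs C and D hold 1 dye orientation each. Over 32 other settings the adjusted p ran from 0.0196 to 0.340 and passed the threshold in 7. Without replicate 4 the ratio was -0.84 (adjusted p = 0.0196).

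The 3 probes of Mylk did not behave alike. A_52_P145912 on the same transcript (mm7, chromosome 16, 34669844 to 34669903) gave -0.72 ± 0.20 (limma over all probes, adjusted p = 0.0565) and followed the first probe from array to array with a Pearson correlation of 0.98 over 12 arrays. The third, A_51_P272407 on AK044527 (mm7, chromosome 16, 34628800 to 34628859), gave 0.023 ± 0.031, stayed between -0.11 and 0.18 on every array, and had a correlation of -0.033 with the first. It was well above background on 12 of 12 arrays in both RNAs, with levels of 7.51 to 8.42 in KO RNA. Yet its median signal was only 7.9 times the local background in KO RNA and 6.6 times in WT RNA. At the brightest probe these were 129 and 208 times. Whether the flat ratios reflect dim signal was not tested. With the mean of all kept probes, the gene's ratio was -0.47. The exon or intron each probe lies in was not determined, as no annotation of mm7 was used here.

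Myl9, the light chain that Mylk phosphorylates, read levels of 11.41 to 12.23 in KO RNA (median 11.84) and 11.34 to 12.90 in WT RNA (median 12.07) at probe A_51_P308298 (mm7, chromosome 2, 156522455 to 156522514). Its ratio was below 0 on 10 of 12 arrays, from -0.84 on replicate 1 to 0.14 on replicate 6. The fitted ratio of -0.32 ± 0.10 (95% interval -0.54 to -0.10, limma adjusted p = 0.0772) also missed the threshold. Pair D had the lowest mean, at -0.74, and pair B the nearest to 0, at -0.11.

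Myh11, the motor protein that defines differentiated smooth muscle, was measured by A_51_P362429, whose match spans 2925 bases on mm7 (chromosome 16, 13741638 to 13744562). KO levels ran from 6.98 to 7.88 (median 7.42) and WT levels from 7.07 to 9.37 (median 7.53). The ratio was below 0 on 11 of 12 arrays, yet on 10 of these it was no lower than -0.46, and replicate 11 stood alone at -1.88. The fitted ratio was -0.30 ± 0.16 (95% interval -0.65 to 0.050, limma adjusted p = 0.301), and -0.14 without replicate 11. The probe was dim, with a median signal of 4.2 times the local background in KO RNA and 5.1 times in WT RNA. With Agilent's processed signals the Myh11 ratio was -0.45. The effect of dim signal on it was not tested.

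Cnn1, calponin, which binds actin and restrains the myosin motor, showed the same array more widely. At A_51_P350817 (mm7, chromosome 9, 21988172 to 21988231) its ratio was above 0 on 8 of 12 arrays, with a highest value of 1.11 on replicate 9, but was -3.03 on replicate 11. On that array the WT RNA read 11.65, against a median of 8.69 on the other arrays, while the KO RNA read 8.61, against 8.93. Myh11 behaved likewise there, with a WT level of 9.37 against 7.53 and a KO level of 7.49 against 7.39. The fitted Cnn1 ratio was -0.030 ± 0.29 (95% interval -0.67 to 0.61, limma adjusted p = 0.969), and 0.26 without replicate 11 (adjusted p = 0.279). Over the 12 arrays, which share dyes and slides, Cnn1 and Myh11 had a Pearson correlation of 0.93, and of 0.51 without replicate 11.

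Tpm2, a tropomyosin that lies along the actin filament, had the widest ratios of the 10 genes. At A_52_P315976 (mm7, chromosome 4, 43532218 to 43532277) they ran from -2.69 on replicate 1 to 2.15 on replicate 6. On replicate 1 the WT RNA read 13.84, against 10.64 on the other arrays, with the KO RNA at 11.14 against 11.12. On replicate 6 it was the KO RNA that was high, at 12.48 against 11.12. All 4 arrays of pair B were above 0, between 0.79 and 2.15, and the pair means of A, B, C and D were -0.62, 1.37, 0.36 and -0.53. With the dye term, those of C and D were 0.69 and -0.86. The fitted ratio of 0.21 ± 0.38 (95% interval -0.63 to 1.04, limma adjusted p = 0.814) leaves room for a change of 2-fold upward. The second Tpm2 probe, A_52_P418477, gave 0.24 ± 0.38 and tracked the first with a correlation of 0.98, from -2.98 on replicate 1 to 2.44 on replicate 6.

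**Figure D2:**
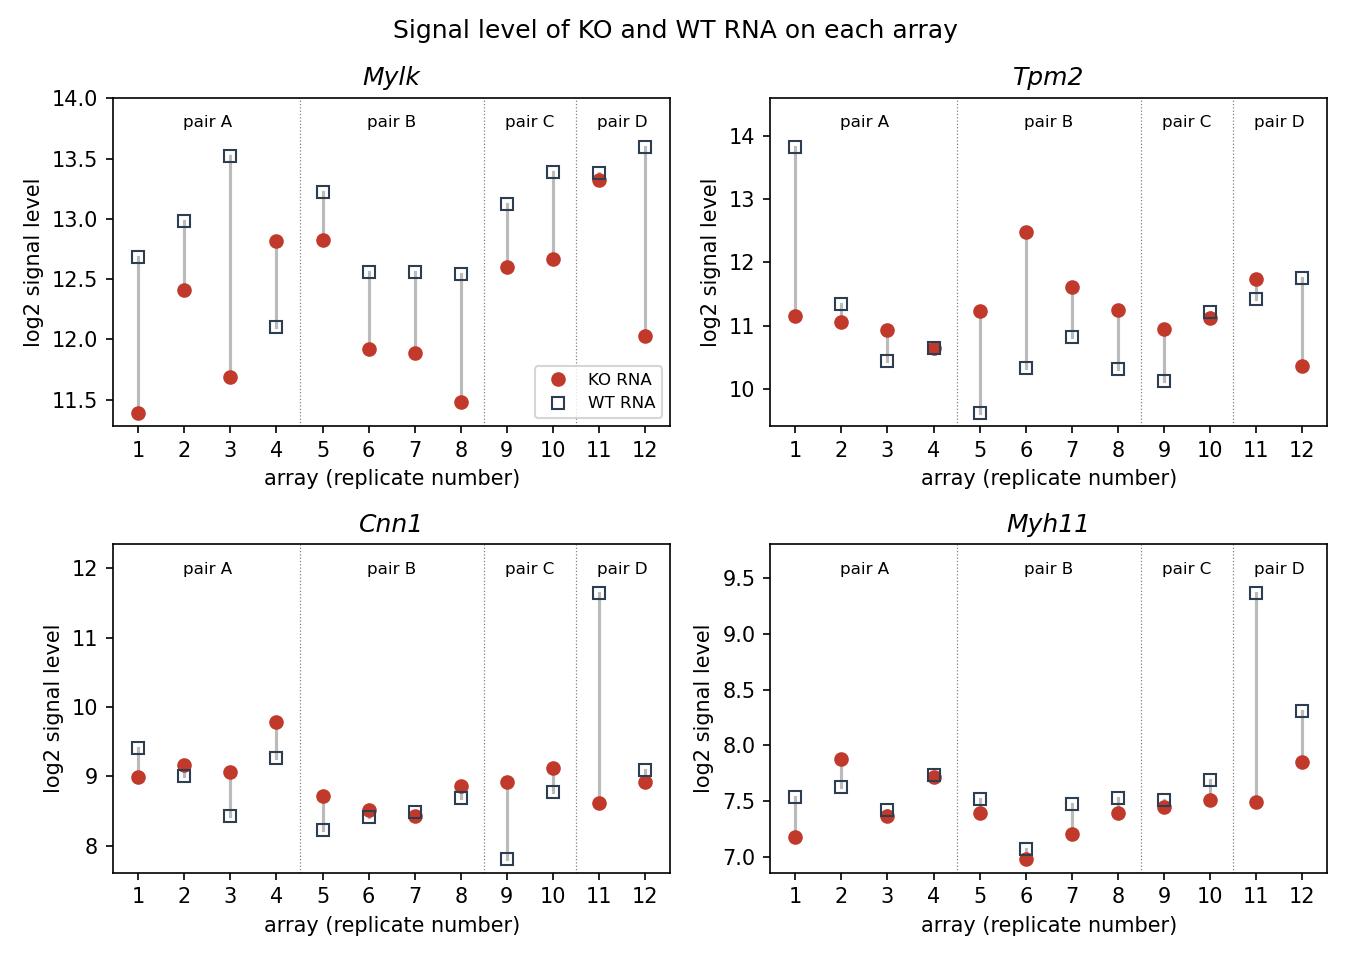
Log2 signal level (vertical axes) of KO RNA (filled circles) and WT RNA (open squares) on each of the 12 arrays (horizontal axes) for Mylk, Tpm2, Cnn1 and Myh11, with grey lines joining both RNAs of an array. WT RNA is higher than KO RNA for Mylk on 11 of 12 arrays, while Tpm2 on replicate 1 and Cnn1 and Myh11 on replicate 11 each have 1 WT level far above the others.

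Acta2, smooth muscle alpha-actin, had 5 probes, and they disagreed. The brightest, A_51_P450957, whose match spans 3255 bases on mm7 (chromosome 19, 33949738 to 33952992, minus strand), read levels of 12.94 to 14.08 in KO RNA and 12.55 to 14.14 in WT RNA. Its ratio ranged from -0.77 on replicate 1 to 0.88 on replicate 6 and was above 0 on 7 of 12 arrays. The fitted ratio was 0.16 ± 0.12 (95% interval -0.098 to 0.41, limma adjusted p = 0.487). A_52_P420504, spotted 10 times on each array, ranged from -1.15 on replicate 7 to 2.32 on replicate 6, with a fitted ratio of 0.15 ± 0.28. It followed a further probe, A_52_P210078 (-1.07 to 2.17), with a correlation of 0.96, but had a correlation of 0.27 with the brightest probe (-0.13 without replicate 6 and 0.58 without replicate 1). On replicate 1 the brightest probe gave -0.77 where A_52_P420504 gave 1.02 and A_52_P210078 gave 1.19. A_52_P239556, on AK077294, stayed between -0.34 and 0.16. It was dim, with a median signal of 4.2 times the local background in KO RNA and 4.5 times in WT RNA, against 435 and 317 at the brightest probe. The remaining probe, A_52_P644232, was not well above background on any array in either RNA (0 of 12 each) and was left out.

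Actg2, the enteric smooth muscle gamma-actin, ranged from -0.91 on replicate 1 to 0.59 on replicate 6 and was above 0 on 6 of 12 arrays. Its fitted ratio was 0.028 ± 0.12 (95% interval -0.24 to 0.30, limma adjusted p = 0.927). The brightest Acta2 probe and the Actg2 probe had a correlation of 0.84 over the arrays. With A_52_P210078, A_52_P420504 and A_52_P239556 the Actg2 correlation was 0.032, 0.10 and 0.30, so its size depended on the Acta2 probe. The coding sequences of the actins are near-identical, and cross-hybridisation between actin probes was not tested.

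Tagln, transgelin or SM22, an actin-bundling protein made early in smooth muscle differentiation, read levels of 12.17 to 13.53 in KO RNA (median 12.80) and 12.51 to 14.16 in WT RNA (median 13.05) at A_51_P450527 (mm7, chromosome 9, 45888137 to 45888196). Its ratio was below 0 on 9 of 12 arrays, lowest at -1.66 on replicate 1 and highest at 0.32 on replicate 8. The fitted ratio was -0.28 ± 0.15 (95% interval -0.62 to 0.059, limma adjusted p = 0.322), and -0.16 without replicate 1. A second probe, A_52_P517683, gave -0.18 ± 0.096 and had a correlation of 0.84 with the first.

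Lmod1, leiomodin, which nucleates actin filaments in smooth muscle, ranged from -1.12 on replicate 11 to 0.99 on replicate 4. It was below 0 on all 8 arrays of pairs B, C and D and above 0 on 3 of 4 arrays of pair A. The fitted ratio was -0.12 ± 0.15 (95% interval -0.45 to 0.20, limma adjusted p = 0.697). Lmod1 had a correlation of -0.70 over the arrays with the brightest Acta2 probe. With A_52_P210078, A_52_P420504 and A_52_P239556 it was 0.29, 0.20 and 0.063, so its sign depended on the Acta2 probe. Smtn, smoothelin, a cytoskeletal protein of contractile smooth muscle, varied least, from -0.51 to 0.29, with a fitted ratio of -0.12 ± 0.069 (95% interval -0.27 to 0.035, limma adjusted p = 0.361).

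**Figure D3:**
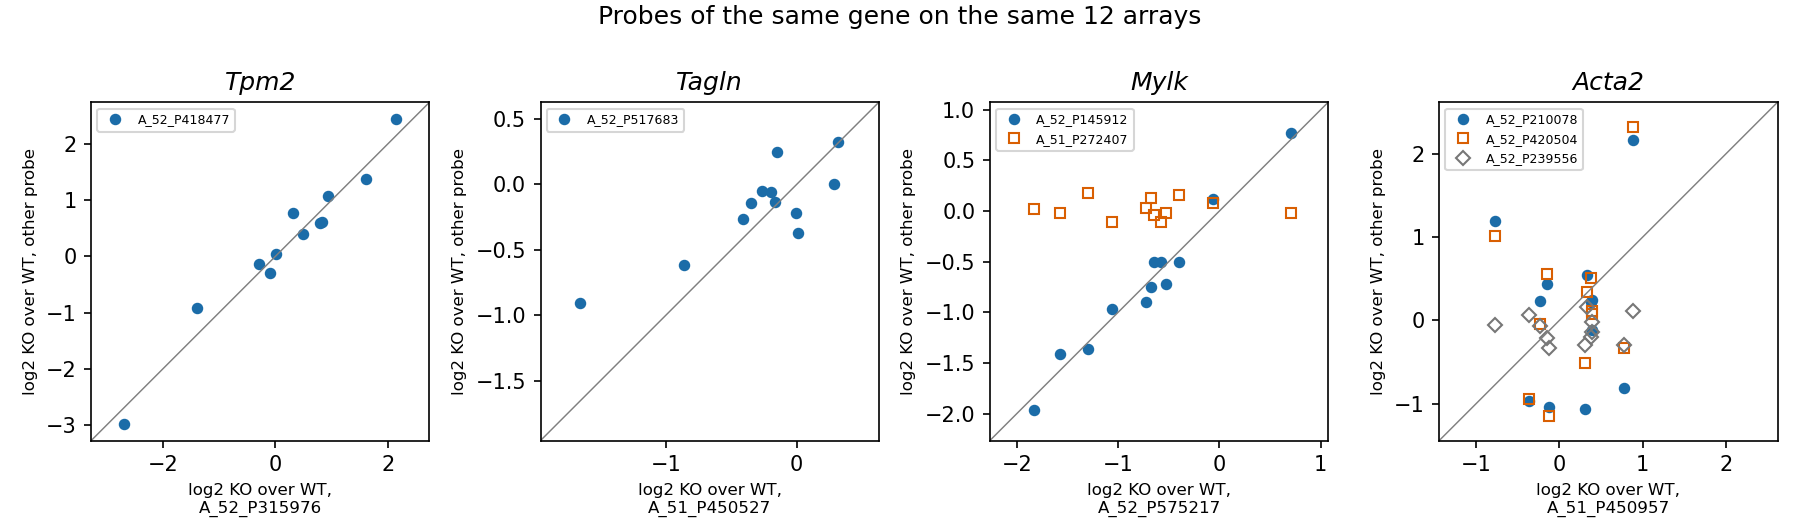
Log2 KO over WT ratios of further probes (vertical axes) against the brightest probe (horizontal axes) of Tpm2, Tagln, Mylk and Acta2, 1 point per array and probe, with the line of equality in grey. Both Tpm2 probes and the first pair of Mylk probes lie along the line (correlation 0.98 each), while the third Mylk probe is flat and the Acta2 probes scatter.

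The contractile genes varied more from array to array than most genes did, though the genes and probes compared were not matched for signal level. Their residual SD after the fit had a median of 0.53 on the log2 scale, from 0.22 for Smtn to 1.36 for Tpm2, against a median of 0.27 over all genes tested, and it was above that median for 9 of 10 genes. Within pairs, where ages and sexes are the same, the median SD was 0.40 against 0.24. Of the 204 ratios of the 17 kept probes, 27 (13.2%) lay beyond 2-fold, 10 above and 17 below, against 3.84% of the ratios of all kept probes. Probes of a gene share these arrays and are not independent. Replicate 1 held 7 of the 27, replicate 6 held 4, and replicates 2, 4 and 10 held 0.

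The 10 genes did not move as a block across the arrays. Over their 45 pairings, each gene at its brightest probe, the median Pearson correlation of the 12 ratios was 0.17, from -0.70 to 0.93, and 15 were below 0. The lowest, of Lmod1 with Acta2, was not seen with the other Acta2 probes. Besides Myh11 with Cnn1 and the brightest Acta2 probe with Actg2, Tpm2 had correlations of 0.78 with Actg2 (0.57 without replicate 1) and 0.76 with Myl9. On replicate 1, 9 of the 10 genes were below 0, with a median of -0.80, while on replicate 4 of the same pair 6 were below 0, with a median of -0.083. Between the 4 pairs, 0 of 10 genes differed (limma F test, adjusted p under 0.05), where 0.347% of all genes did. Myh11 and Lmod1 had unadjusted p-values of 0.035 and 0.042 there, and 12.3% of all genes had one under 0.05.

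Markers of airway epithelium or the mesothelial marker Msln were far apart between KO and WT RNA on some, not all, of the arrays where single contractile genes were extreme. On replicate 11, where Cnn1 was at -3.03 and Myh11 at -1.88, the median of the 4 airway epithelium markers was -5.20, against medians of -1.81 to 1.82 on the other 11 arrays. The club cell secretoglobin Scgb1a1 read -5.82 there, with a WT level of 19.03 and a KO level of 13.21. Foxj1, the regulator of motile cilia, read -4.44. The summed airway level ranged from 14.3 to 17.1 on the log2 scale in KO RNA and from 14.0 to 19.8 in WT RNA. On replicate 1, where Tpm2 was at -2.69 and Tagln at -1.66, the mesothelial marker Msln was at -5.94, with a WT level of 17.30. The median of the 4 mesothelial markers there, Msln among them, was -0.23, and Upk3b and Lrrn4 read -0.23 and -0.14. Upk3b and Lrrn4 were well above background on only 8 arrays in each RNA, and Wt1 on 9, so their small ratios may reflect dim signal. The summed mesothelial level ranged from 10.5 to 12.7 in KO RNA and from 9.92 to 17.3 in WT RNA. On replicate 12, airway markers stood at a median of 1.82 and Msln at -3.38, with Tpm2 at -1.39, Cnn1 at -0.16 and Myh11 at -0.46. On replicate 6, where Tpm2 was at 2.15, the airway median was 0.27 and the mesothelial median 0.065, and on replicate 3, where Mylk was at -1.83, they were 0.13 and 0.24. The part of these cells in the contractile ratios was not tested.

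**Figure D4:**
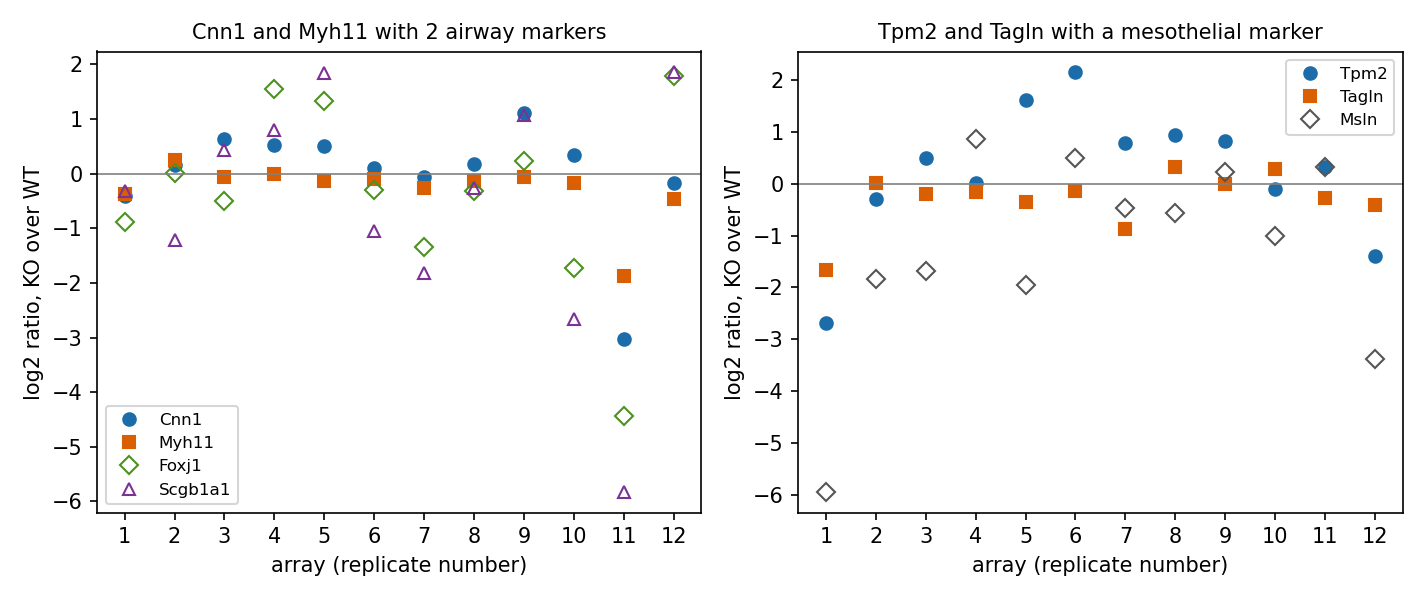
Log2 KO over WT ratio (vertical axes) on each of the 12 arrays (horizontal axes) for Cnn1 and Myh11 with the airway markers Foxj1 and Scgb1a1 (left), and for Tpm2 and Tagln with the mesothelial marker Msln (right). Replicate 11 has the lowest value of each gene on the left, and replicate 1 the lowest of each gene on the right.

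Some genes that work beside the contractile ones were called. Of 20 filament partners, 1 rose and 2 fell (15% called against 7.14% of all genes, median -0.052). Nexn, which binds actin at the filament's anchors, fell by 0.74 ± 0.078 on the log2 scale and was below 0 on 12 of 12 arrays (limma adjusted p = 0.000562). Des, the muscle intermediate filament desmin, fell by 0.43 ± 0.099 (adjusted p = 0.0274), and Cald1, caldesmon, rose by 0.87 ± 0.22 (adjusted p = 0.0363), above 0 on 10 of 12 arrays. Among 6 non-muscle counterparts of the filament proteins 0 were called, with a median of -0.080 and Actb, Myh9 and Myh10 at -0.18, -0.11 and -0.11.

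The pathway that sets light chain phosphorylation had 2 lower calls among 16 genes tested (12.5%, median -0.075). Gucy1b3, a subunit of the nitric oxide receptor guanylate cyclase, fell by 0.64 ± 0.095 (limma adjusted p = 0.00329) and was below 0 on 12 of 12 arrays. Prkg1, the cyclic GMP-dependent kinase downstream of it, fell by only 0.13 ± 0.033 (adjusted p = 0.0359). Ppp1r14a, an inhibitor of myosin phosphatase, stood at -0.58 ± 0.16 and missed the threshold (adjusted p = 0.0554). Of 10 calcium and potassium handling genes, 1 was called (10%), the channel Trpc6, which fell by 0.27 ± 0.060 (adjusted p = 0.0232). Stim1 and Orai1, which refill calcium stores, were at -0.26 and -0.19 without a call.

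The activators of the contractile programme did not pass the test. Srf stood at -0.038 ± 0.12, Myocd at -0.024 ± 0.030, Mkl1 at 0.10 ± 0.11 and Mkl2 at -0.021 ± 0.042 (limma adjusted p = 0.900, 0.709, 0.661 and 0.835). Myocd was well above background on 10 of 12 arrays in KO RNA and on 12 in WT RNA. Among 9 regulators tested, 1 was called (11.1%), Klf4, a factor that represses contractile genes in smooth muscle. It fell by 0.63 ± 0.12 (adjusted p = 0.0136) and was below 0 on 12 of 12 arrays, from -1.25 to -0.020. Csrp2, a partner of Srf, was at -0.53 ± 0.15 (adjusted p = 0.0530) and Gata6 at 0.21 ± 0.093.

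The pericyte and endothelial lists differed from the contractile list in their counts. Of 8 pericyte markers 6 fell, with a median of -0.75, among them Pdgfrb (-0.88 ± 0.10), Mcam (-0.73 ± 0.087) and Higd1b (-0.77 ± 0.13), against 0 of 10 contractile genes called and a median of -0.12. Summed over the pericyte list, the level ranged from 13.3 to 13.8 in KO RNA and from 14.1 to 14.8 in WT RNA. Of 11 endothelial markers 10 fell, with a median of -0.70, among them Cdh5 (-0.83 ± 0.075), Pecam1 (-0.65 ± 0.060) and Erg (-0.998 ± 0.097). Their summed level ranged from 13.9 to 14.4 in KO RNA and from 14.5 to 15.3 in WT RNA. The contractile genes summed to 14.9 to 15.5 in KO RNA and 15.1 to 16.2 in WT RNA, ranges that overlap, as in every list but the pericyte and endothelial ones. Such a sum adds different probes, and the brightest weigh most in it. The members and the lists were chosen with earlier results of these data known, and the difference between the lists was not tested.

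Markers of the remaining cell types gave mixed values. Of 9 fibroblast markers, Postn fell (-0.81 ± 0.18), Lum rose (1.13 ± 0.30) and 7 were not called, with a median of -0.37. Pdgfra was among these at -0.67 ± 0.19. Of 10 cardiac muscle markers only Myl4 was called, at -0.32 ± 0.062, with Nppa and Actc1 at -0.040 and 0.14 and a median of -0.0087. None of 5 skeletal muscle markers (0 of 5, with Acta1, Ckm and Mylpf at 0.16, 0.017 and -0.039) and none of 3 basal and myoepithelial markers (0 of 3, with Krt14, Trp63 and Krt5 at 0.22, -0.34 and -0.014) was called. In the mesothelial (0 of 4, median 0.0018), airway (0 of 4, median -0.25) and macrophage lists (0 of 5, median -0.20) there was no call either. The alveolar type 2 list had 1 of 6, Lamp3 (-0.78 ± 0.19), and a median of -0.17.

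**Figure D5:**
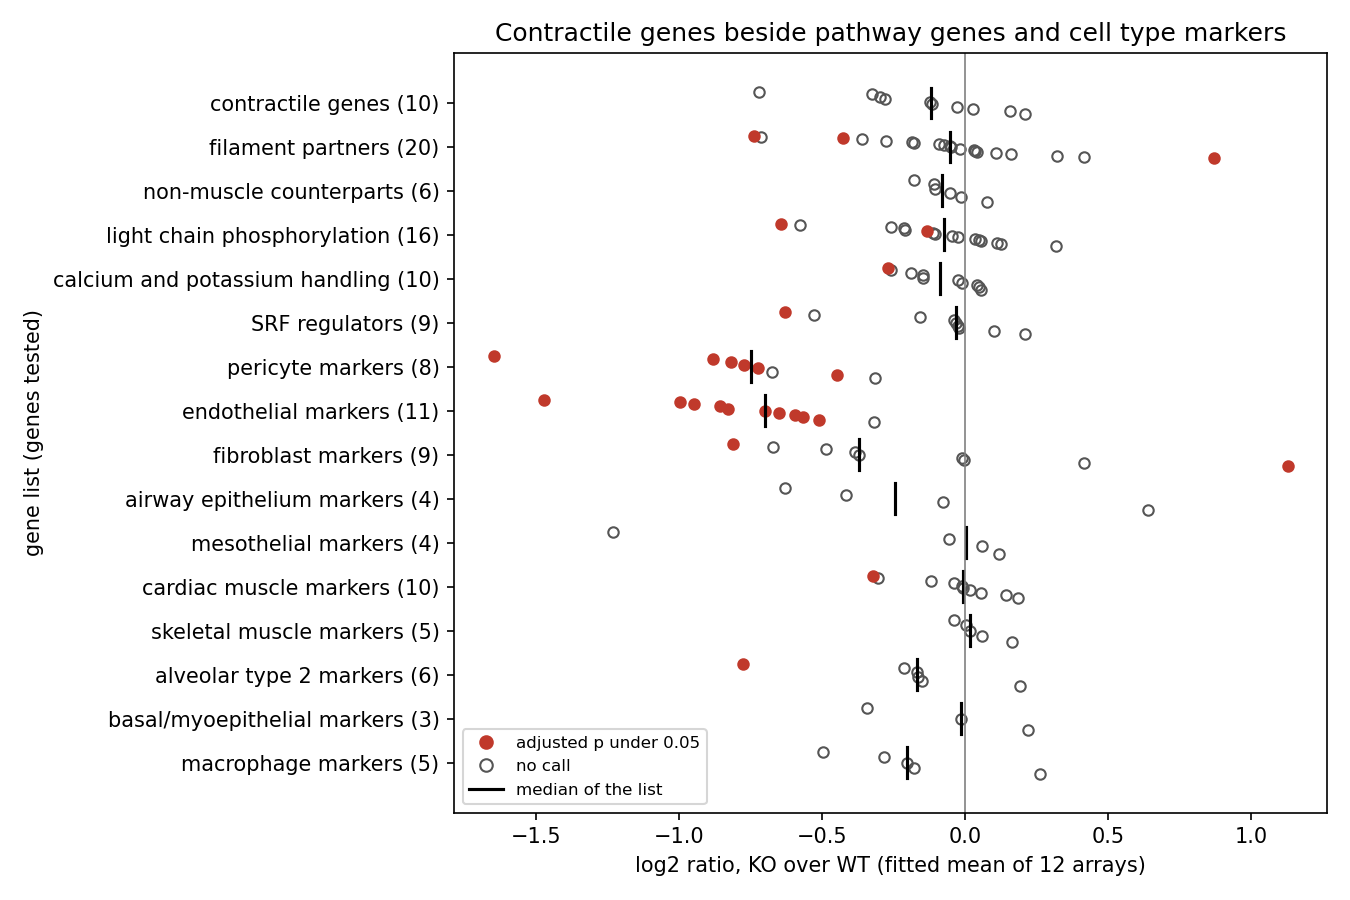
Fitted log2 KO over WT ratio (horizontal axis) of each gene in 16 lists (vertical axis, with the number of genes tested), filled where the adjusted p was under 0.05, with the median of each list as a black bar. The contractile genes have 0 filled points and a median of -0.12, while 6 of 8 pericyte and 10 of 11 endothelial markers are filled and lie below 0. The lists were chosen with earlier results of these data known.

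The genes whose 12 ratios were most like the mean ratio of the 10 contractile genes were Agtr1b, Map2 and Ccdc187, with Pearson correlations of 0.93, 0.92 and 0.90. Next came 0610010O12Rik, Cpa1 and Anxa10 at 0.87 each, Npy4r, Chst3 and Ppp1r3e at 0.86 each, and Snai2 at 0.85. The ratios of Agtr1b, an angiotensin receptor, covered only -0.14 to 0.15, those of Cpa1 -0.17 to 0.17 and those of Ppp1r3e -0.16 to 0.16. Those of Anxa10, an annexin, ran from -3.68 to 1.64. Chst3, a sulfotransferase of chondroitin chains, was the only one of these 10 genes called (-0.19 ± 0.048, limma adjusted p = 0.041). Snai2, a transcription factor of mesenchymal cells, stood at -0.67 ± 0.21 (adjusted p = 0.0708). These are the highest correlations among the 20597 genes tested, leaving out the 10 members and genes without a ratio on every array. They rest on 12 arrays that share dyes and slides. The mean they were set against was lowest on replicate 1, at -0.84, and replicate 11, at -0.58. It was taken over unscaled ratios, so members that varied widely, such as Tpm2 and Cnn1, weighed most in it.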

How the data were processed

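Lung tumour RNA was labelled in Cy3 or Cy5 from an oligo-dT primer and hybridised as KO against WT on 12 arrays, per the labels' protocols. Spots were read with Agilent Feature Extraction 10.1.1.1, per the file headers. The authors deposited, for every spot and dye, a mean intensity and a local background intensity without normalization, and flags (0 or 1) for spots well above background, saturated or outlying. Their series matrix gives a log2 ratio for each probe, which the submitters' processing notes tie to limma without further steps. It correlated with the ratios computed here at 0.9978 to 0.9995 and had column medians of -0.011 to 0.0078, with the swapped arrays already turned.

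In R 4.3.3 with limma 3.58.1 and statmod 1.5.0, mean signals were corrected with normexp (offset 50). Outlying local backgrounds were replaced by the array's median. Ratios were normalized by loess within arrays, turned to KO over WT, and averaged over spots. Levels also had Aquantile scaling between arrays. Probes well above background in KO or WT RNA on at least 6 of 12 arrays were kept (35563 of 41174), and the brightest kept probe represented a gene. Of all probes, 22951 were named through RefSeq accessions, 11758 kept the file's name, and 6465 had none.

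The fit had a dye term and the pair as a random block, estimated on the turned ratios (consensus correlation 0.079), with Benjamini-Hochberg adjustment over all genes. Repeat fits used all probes or a coefficient per pair. The scripts were tested on simulated data. Named genes were all member probes, Dnmt3a, up to 3 genes of smallest p per list, Srf, Myocd, Mkl1 and Mkl2, and the 10 genes most correlated with the members' mean. The members and lists were chosen with earlier results of these data known. The closing section gives the alternatives. Correlations without a single array were computed after seeing the data.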

Additional observations from a re-analysis of the deposited data

How the results depend on the processing

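Over 32 alternative settings, Tagln, Myh11, Mylk, Myl9 and Smtn kept ratios below 0. Mylk alone among the 10 genes was called in any, lower each time, so the count of called contractile genes was 1 in place of 0 with Agilent's processed signals, with only probes well above background in both dyes on all arrays, without the block, with each pair averaged to 1 value and with array weights. With single arrays or pairs left out that count was 0 to 1, being 1 without replicate 4 and 1 without replicate 5. Called probes numbered 2 without the block and 2 with the mean of each pair. All called genes numbered 359 with median centring, 2212 without the block and 48 with each pair averaged to 1 value, between 400 and 1818 with arrays or pairs left out (400 without pair A, 775, 926 and 799 without replicates 3, 7 and 12), and 0, 1 and 0 within slides 1, 2 and 3. Ratios near 0 changed sign in places. Cnn1 was at 0.012 with median centring, 0.012 with processed signals, 0.054 with array weights, 0.22 within slide 1, 0.18 within slide 2, and -0.14 to 0.31 with arrays or pairs left out. Without replicates 1, 6 and 11 together, chosen after seeing the data, it was at 0.34. Actg2 was at -0.27 within slide 1 and -0.077 to 0.17 with arrays or pairs left out, Acta2 at -0.19 within slide 1, Lmod1 at 0.37 within slide 1 and -0.35 to 0.022 with arrays or pairs left out, and Tpm2 at -0.62 within slide 1, -0.085 within slide 3 and -0.35 to 0.60 with arrays or pairs left out. The cause of these changes was not tested. The share of probes well above background was lowest on the slide of pairs C and D. Changes of sign also came within slide 1, where that share was at least 81.7%.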
